A study of Mus musculus with 8 samples.

Results

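Mgp, Spp1, Tnfrsf11b, Enpp1 and Phex encode proteins that hold back or regulate mineral deposition in connective tissue, and their transcripts were followed through the cell groups of the mouse ascending thoracic aorta. They are 5 of the 32285 genes in the deposited matrix, chosen by name. The tissue came from 3 young wild-type mice of 11, 12 and 13 weeks, and neither a strain nor a treatment is given in the labels. Cells were released with collagenase and elastase over 60 min, depleted of dead cells, marked with 1 hashtag antibody per age and captured in droplets, and all libraries were merged into 1 matrix. With 1 animal per age, no test between ages was made, and the comparisons set cell groups of the same aortas against each other.

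The vessel wall holds calcium and phosphate close to the point at which mineral forms, and it keeps mineral from forming by several routes. Mgp encodes matrix Gla protein, a vitamin K dependent inhibitor secreted into the matrix, and mice that lack it calcify their arteries early in life. Enpp1 encodes the ectoenzyme that makes extracellular pyrophosphate, a direct inhibitor of mineral growth, and its loss also leads to arterial calcification. Phex encodes a membrane endopeptidase of bone and tooth cells whose loss raises FGF23 and causes phosphate wasting. Tnfrsf11b encodes osteoprotegerin, the soluble decoy receptor for RANKL and TRAIL, and Spp1 encodes osteopontin, a phosphoprotein that binds mineral and integrins. In the GRCm38 reference (the mm10 build), Mgp lies at chr6:136872435-136875823, Enpp1 at chr10:24637914-24712159, Phex at chrX:157162075-157415286, Tnfrsf11b at chr15:54250619-54278484 and Spp1 at chr5:104435111-104441053, each as a protein-coding gene.

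A barcode was kept with at least 500 genes, at most 20% mitochondrial UMIs and fewer than 10 haemoglobin UMIs (a UMI counts 1 captured transcript), which left 9939 of 48467 barcodes with a median of 6592 UMIs. Fibroblast barcodes (Dcn at 0.3% of UMIs or more) numbered 1395, endothelial barcodes (3 or more UMIs of Pecam1, Cdh5 and Gpihbp1) 699, macrophage barcodes (3 or more C1q UMIs) 74, and smooth muscle (SMC) barcodes (Acta2, Tagln and Myh11 at 1.5% or more) 6722, of which Pln was detected in 1265 and undetected in 5457. A further 426 barcodes met the rule of 2 groups and were dropped, and 623 met none. Genes that the rule did not use were checked against the names. The 6 fibroblast check genes (Col1a1, Pdgfra and others) summed to 8060 counts per 1000000 UMIs (CPM) in fibroblasts against 221, 126 and 407 CPM in the endothelial, macrophage and SMC groups. The endothelial set summed to 3778 CPM in endothelial barcodes, the macrophage set to 10846 CPM in macrophage barcodes and the SMC set to 4113 CPM in SMC, each above its sum in every other group. Mesothelial markers reached 118 CPM in fibroblasts.

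Free RNA and the hashtags bear on every value below. Barcodes under 500 genes, with 556798 CPM of red cell markers, still held 2219 CPM of Acta2 and 2412 CPM of Mgp, and the SMC check genes stood at 452, 671 and 496 CPM in fibroblasts, endothelial barcodes and macrophages, against 695 CPM under 500 genes. Red cell markers summed to 1134 CPM or less in the named groups. Red cell transcripts thus lower the CPM of other genes under 500 genes, wherever it stands beside a group's CPM below. Ratios to Acta2 are not lowered in this way. A single hashtag was called on 283 fibroblast (20.3%), 523 endothelial (74.8%), 58 macrophage (78.4%) and 1407 SMC barcodes (20.9%). The hashtags told animals apart poorly in fibroblasts and SMC: fibroblast barcodes called for hashtag 1 held a median of 149 UMIs of it, against 81 in fibroblast barcodes with no call, and the SMC medians were 157 and 80. A stricter caller gave the same hashtag to 14 of the 283 fibroblast barcodes (4.95%) and 58 of the 1407 SMC barcodes (4.12%), and to 213 of 523 endothelial (40.7%) and 28 of 58 macrophage barcodes (48.3%), and another hashtag to 0. Fibroblast and SMC sums per hashtag may therefore mix animals, and the p-values measure the spread between these 3 sums, which may be technical.

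Levels below are CPM of all barcodes of a group unless sums per hashtag are named, and tests are edgeR quasi-likelihood fits on the sums of single-hashtag barcodes, adjusted by Benjamini-Hochberg over all genes. In the fibroblast minus SMC comparison, 2 of the 4 genes that passed the filter on low counts were called, Phex higher and Enpp1 lower, where 37.9% of all 9046 tested genes were called. In endothelial minus SMC all 4 were lower, against 27.3% of genes called lower and 50.4% called in either direction. In macrophage minus SMC, Mgp and Tnfrsf11b were lower, 2 of 4, against 33.5% of genes called. In fibroblast minus endothelial all 4 were higher, against 19.9% called higher, 16.9% lower and 36.8% in either direction. Between Pln-detected and Pln-undetected SMC, Mgp alone was called, 1 of 4, where 0.303% of 9576 genes were called. Spp1 was filtered out of every fit and has no test. Calls between cell groups were thus common among all genes, and calls between the SMC sets were rare. TMM scaling left the median gene at -0.07 in log2 for endothelial minus SMC and at -0.38 for macrophage minus SMC, against 0.12 and -0.07 with plain library totals, and the share of calls that were higher was 45.9% and 40.6%, against 58.7% and 55.3%.

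**Figure D1:**
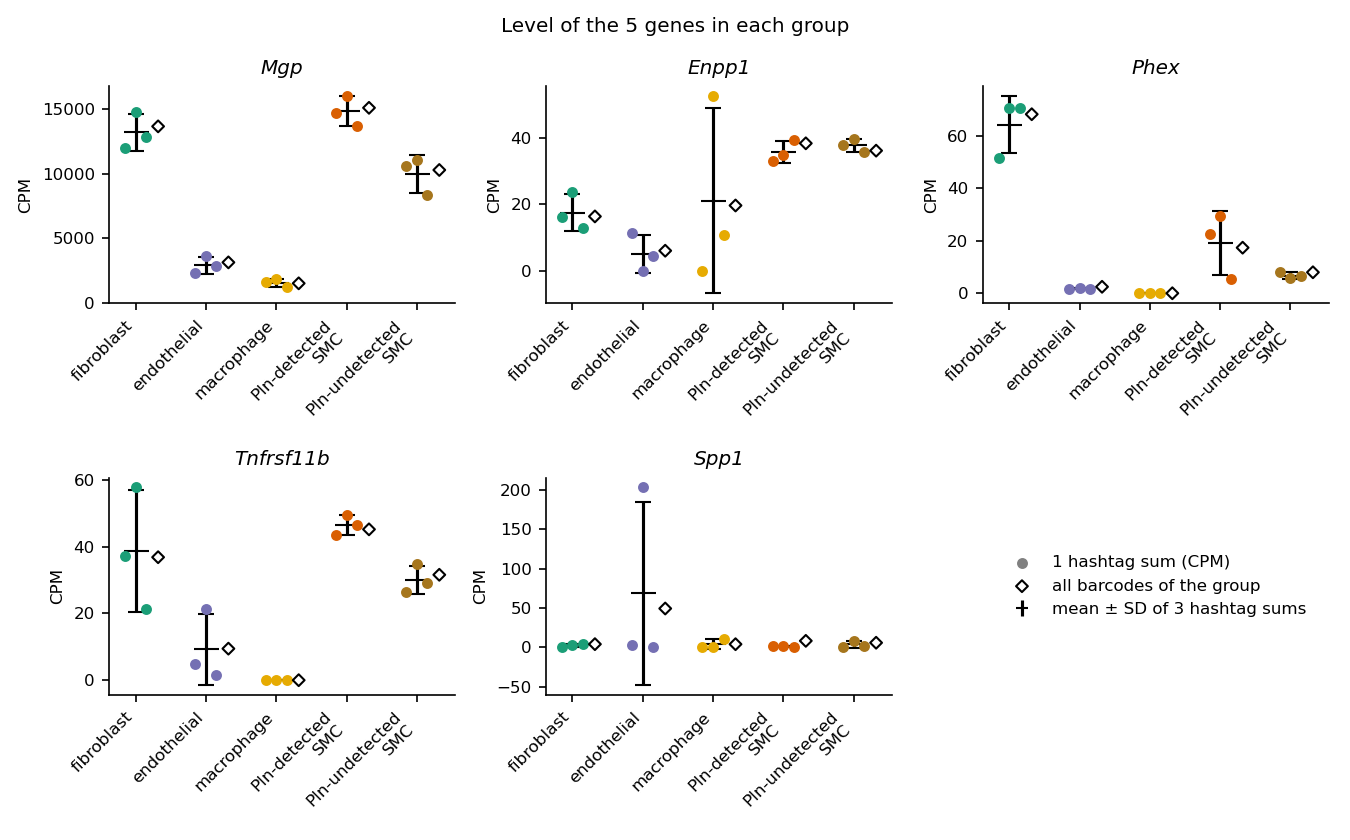
Level (CPM) of each gene in the fibroblast, endothelial, macrophage, Pln-detected SMC and Pln-undetected SMC groups. Points are the 3 hashtag sums, bars their mean ± SD, open diamonds all barcodes of the group; the lowest Mgp sum of the fibroblast and SMC groups is 8313 CPM and the highest of the endothelial and macrophage groups 3622 CPM, and 1 endothelial sum carries the Spp1 mean.

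Mgp was the most abundant of the 5 transcripts in every group, with 778618 UMIs over the passing barcodes, 11850 CPM or more than 1% of all UMIs. Its hashtag sums were 11972, 14729 and 12825.5 CPM in fibroblasts, 2331, 3622 and 2841 CPM in endothelial barcodes, 1655, 1854 and 1233 CPM in macrophages, and 11375, 11946 and 9356 CPM in SMC. The 3 fibroblast sums lay just above the 3 SMC sums, and both lay far above the other groups. Fibroblasts averaged 13175.5 ± 1412 CPM and SMC 10892 ± 1361 CPM (SD, n = 3 sums), a difference in log2 of 0.19 ± 0.10 (SE) that did not pass the test (edgeR adjusted p = 0.13), although it was higher in 3 of 3 hashtags. It passed with plain library totals in place of TMM scaling (0.28, edgeR adjusted p = 0.0074) and with the group thresholds doubled (0.88, edgeR adjusted p = 4.7e-09). It did not pass under the other 10 of 12 alternatives, where the log2 was as low as 0.03.

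Endothelial barcodes held less Mgp than SMC, by a log2 of -2.10 ± 0.10 (edgeR adjusted p = 1.6e-27, lower in 3 of 3 hashtags), and macrophages less by -3.15 ± 0.13 (edgeR adjusted p = 9.7e-32, lower in 3 of 3). Fibroblasts exceeded endothelial barcodes by 2.29 ± 0.10 (edgeR adjusted p = 7.7e-29). The calls held, but with doubled group thresholds the differences from SMC shrank to -1.08 in endothelial barcodes and -1.46 in macrophages. That setting lets barcodes of under 3% muscle UMIs into these groups, and the part of this in the smaller differences was not tested. The stricter hashtag caller gave -1.55 in endothelial barcodes. Over all barcodes the endothelial level was 3145 CPM and the macrophage level 1528 CPM. Barcodes under 500 genes held 2412 CPM, a value lowered by their red cell transcripts. The macrophage value is therefore read as background, and CPM cannot place the endothelial value above background. The median Mgp share per barcode was 0.179% in endothelial barcodes and 0.140% in macrophages, both below the 0.226% of barcodes under 500 genes. Set against Acta2, endothelial barcodes held 1.75 Mgp UMIs per Acta2 UMI and macrophages 0.862, against 0.771 in SMC and 1.09 under 500 genes. The 77 endothelial barcodes with Vwf, a large-vessel and venous marker, held 5151 CPM and 3.58 Mgp UMIs per Acta2 UMI, against 2704 CPM and 1.44 in the 622 without it, at median depths of 4437 and 2489.5 UMIs. Over hashtags the Vwf-detected sums were 4104, 2819 and 7615 CPM and the others 2035, 3839 and 1413 CPM, higher in 2 of 3, and the ranges overlapped. In hashtag 2, 630 of the 1562 Mgp UMIs without Vwf lay in 1 barcode rich in Spp1, and without it that sum was 2351 CPM, below the Vwf-detected 2819 CPM. Dcn, the fibroblast rule gene, stood at 856 CPM with Vwf and 153 CPM without it. The part of fibroblast RNA in these Mgp values was not tested. The Vwf split was chosen after its values were seen and has no test.

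Within SMC, Mgp was higher where Pln was detected, the phospholamban gene that restrains the calcium pump of the sarcoplasmic reticulum. The Pln-detected sums were 14711, 16020 and 13699 CPM, against 10613, 11038 and 8313 CPM in Pln-undetected SMC. Every Pln-detected sum was above every Pln-undetected one (log2 0.58 ± 0.03, edgeR adjusted p = 8.9e-17). The Pln split was chosen with earlier results of these data known, so this p-value is no independent test. The median depth was 7702 UMIs in Pln-detected and 7219 UMIs in Pln-undetected barcodes, and the difference was 0.49 to 0.74 in log2 under the alternatives run, among them a split made after thinning each barcode to 2000 UMIs. Acta2 was 14344 CPM in Pln-detected and 14637 CPM in Pln-undetected SMC over all barcodes.

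**Figure D2:**
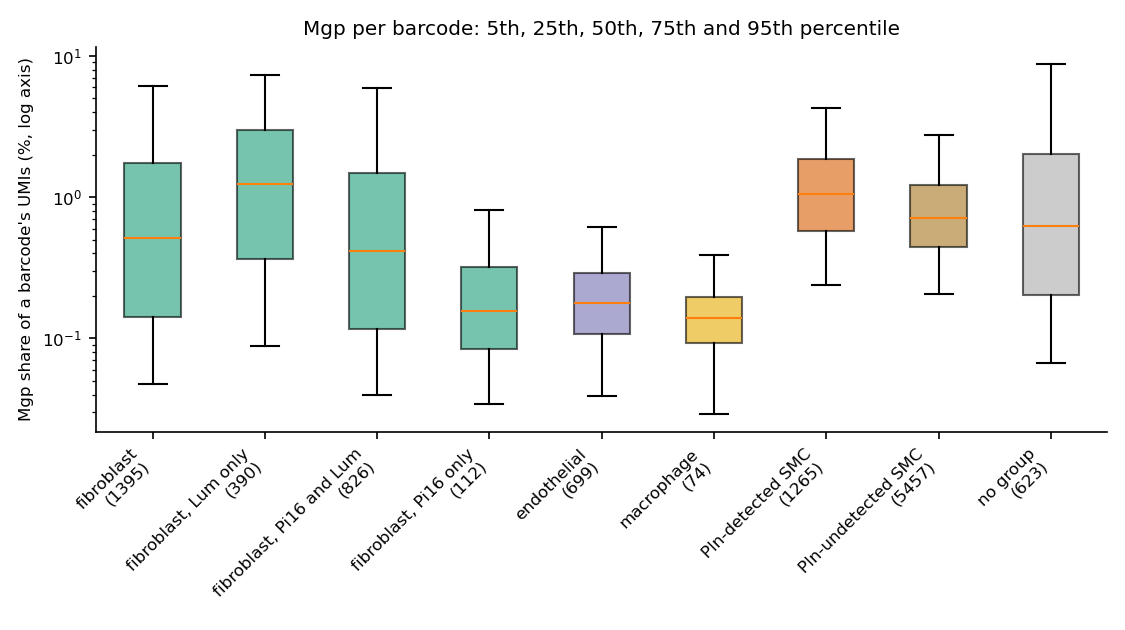
Mgp share of each barcode's UMIs (%, log axis) by group, with the number of barcodes under each box. Boxes span the 25th to 75th percentile with the median, whiskers the 5th to 95th; fibroblasts have the widest spread of the named groups, and those with Pi16 but no Lum lie near the endothelial and macrophage boxes.

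Fibroblast barcodes differed among themselves far more than SMC. The median share of Mgp in a barcode's UMIs was 0.514% in fibroblasts, 0.179% in endothelial barcodes, 0.140% in macrophages and 0.761% in SMC. The 5th and 95th percentiles were 0.0472% and 6.12% in fibroblasts and 0.210% and 3.12% in SMC, and the highest barcodes reached 19.5% in fibroblasts and 11.8% in SMC. Fibroblasts thus had the higher summed level and the lower median, and 99 of 1395 fibroblasts (7.10%) gave at least 5% of their UMIs to Mgp, against 106 of 6722 SMC (1.58%).

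The fibroblast range ran along Pi16 and Lum, markers of adventitial progenitor-like and of matrix-rich fibroblasts. The 390 barcodes with Lum and no Pi16 held 23136 CPM of Mgp, the 826 with both 11902 CPM, the 112 with Pi16 and no Lum 2830 CPM and the 67 with neither 6538 CPM. Phex was 126 CPM with Lum alone, 55.8 CPM with both, 28.6 CPM with Pi16 alone and 0 UMIs with neither, which allows up to 9.54 CPM. The Phex value with Pi16 alone rested on 17 UMIs in 5 barcodes. Both genes stood in the same order over the sets with Lum or Pi16, and the set with neither fell above the Pi16 set for Mgp and below it for Phex. Summed by hashtag, Pi16-undetected fibroblasts held 16386, 21043 and 19863 CPM of Mgp, against 9763, 10849 and 10016 CPM in Pi16-detected ones, with no overlap. The difference in log2 was 0.89 ± 0.08 (edgeR adjusted p = 0.00035), and Mgp was 1 of 3 genes called where 4.88% of 3854 genes were called, 2.05% higher and 2.83% lower. The median depth was 4068 UMIs in Pi16-undetected and 4831 UMIs in Pi16-detected barcodes. The Pi16 and Lum sets were chosen after the data were seen.

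Enpp1 was higher in SMC than in fibroblasts or endothelial barcodes. Its sums were 16.1, 23.6 and 12.8 CPM in fibroblasts, against 36.8, 38.8 and 36.4 CPM in SMC. The groups did not overlap, and the SMC sums lay close together. Fibroblasts were lower by a log2 of -1.21 ± 0.31 (edgeR adjusted p = 0.00094, lower in 3 of 3 hashtags), or 2.31-fold. The call held under all 12 alternatives that gave a value. Endothelial barcodes held 7, 0 and 3 Enpp1 UMIs in the 3 sums, 11.4, 0 and 4.51 CPM, and were lower than SMC by -2.91 ± 0.38 (edgeR adjusted p = 8.4e-10), or by -4.02 without hashtag 1 and -2.32 without hashtag 2. Over all endothelial barcodes the level was 6.16 CPM, against 4.70 CPM under 500 genes, with counting intervals of 3.45 to 10.2 CPM and 3.20 to 6.68 CPM (exact Poisson, 95%, counting error only). Fibroblasts exceeded endothelial barcodes by 1.70 ± 0.56 (edgeR adjusted p = 0.012), a difference of 2.88 without hashtag 1 and a call lost without hashtag 2 (0.94, edgeR adjusted p = 0.25) and at 10% mitochondrial UMIs or less (1.22, edgeR adjusted p = 0.20). Macrophages rested on 5 UMIs, 19.7 CPM with an interval of 6.39 to 45.9 CPM, and their difference from SMC did not pass (edgeR adjusted p = 0.20).

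Enpp1 gave no called difference by Pln. Its sums were 33.0, 34.9 and 39.3 CPM in Pln-detected and 37.7, 39.7 and 35.7 CPM in Pln-undetected SMC (log2 -0.06 ± 0.18, edgeR adjusted p = 0.97). They overlapped, and the 95% interval of the fold ran from 0.747 to 1.23.

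Phex had its highest level of the 4 groups in fibroblasts, at 68.3 CPM over all barcodes (462 UMIs), while the larger SMC group held 493 UMIs at 9.89 CPM. Its fibroblast sums were 51.7, 70.9 and 70.5 CPM, against 1.62, 1.93 and 1.503 CPM in endothelial barcodes, 0 UMIs in all 3 macrophage sums and 10.8, 10.0 and 6.25 CPM in SMC. No sum of another group came near the fibroblast range. Fibroblasts were 6.57-fold above SMC (log2 2.72 ± 0.28, edgeR adjusted p = 5.9e-13) and 38.2-fold above endothelial barcodes (log2 5.25 ± 0.53, edgeR adjusted p = 4.8e-13), both higher in 3 of 3 hashtags and called under every alternative run. The sizes are loose: log2 ran from 2.06 at 10% mitochondrial UMIs or less to 4.12 with doubled group thresholds against SMC. Against endothelial barcodes, whose sums hold 1 UMI each, it ran from 4.30 with doubled thresholds to 8.13 at the lower mitochondrial limit. The endothelial level over all barcodes, 6 UMIs or 2.46 CPM, lay within the counting error of the 1.67 CPM under 500 genes, and is read as background. The lower endothelial than SMC level (log2 -2.54 ± 0.66, edgeR adjusted p = 0.00095) was lost with doubled group thresholds (-0.18, edgeR adjusted p = 0.85). At 0 of 254009 macrophage UMIs, up to 11.8 CPM is allowed, which covers the SMC level, so no macrophage difference from SMC was detectable at this depth. The 11.8 CPM lies below the 68.3 CPM of fibroblasts, but macrophages were not tested against fibroblasts.

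Even in fibroblasts Phex was seen in few cells. After thinning to 2000 UMIs it was found in 126 of 1292 fibroblast barcodes (9.75%), 3 of 547 endothelial (0.548%), 0 of 66 macrophage and 115 of 6658 SMC barcodes (1.73%). Without thinning the share was 14.7% in fibroblasts (median depth 4531 UMIs), 0.858% in endothelial barcodes (2599 UMIs), 0% in macrophages (3044.5 UMIs) and 5.25% in SMC (7315.5 UMIs). The SMC sums were 22.4, 29.4 and 5.62 CPM with Pln detected and 8.14, 5.73 and 6.40 CPM with Pln undetected. Hashtag 3 of the Pln-detected SMC rested on 4 UMIs and lay just below the Pln-undetected sums, while the other two lay above them, and the difference did not pass (log2 1.41 ± 0.36, edgeR adjusted p = 0.097). It passed without hashtag 3 (1.83, edgeR adjusted p = 0.030) and with no filter on low counts (1.38, edgeR adjusted p = 0.010). It did not pass under the other 9 of 11 alternatives, where the log2 ran from 0.94 to 2.02. In fibroblasts the Pi16-undetected sums were 92.0, 82.7 and 104.9 CPM and the Pi16-detected sums 31.5, 63.6 and 56.8 CPM, without overlap. The difference did not pass (log2 0.95 ± 0.31, edgeR adjusted p = 0.12). With the 41 barcodes of mesothelial genes Msln or Upk3b left out it passed (1.33, edgeR adjusted p = 0.013). It did not pass under the other 9 of 10 alternatives, where the log2 was as low as 0.68.

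Tnfrsf11b was shared by fibroblasts and SMC. Its sums were 37.1, 57.7 and 21.4 CPM in fibroblasts, against 29.7, 37.5 and 32.3 CPM in SMC. The fibroblast sums straddled the SMC range, and the difference was 0.11 ± 0.25 in log2 (edgeR adjusted p = 0.79), with a 95% interval of the fold from 0.762 to 1.52. In endothelial barcodes the sums were 4.87, 21.3 and 1.503 CPM, and 8 of all 23 endothelial UMIs came from 1 barcode. Endothelial barcodes were lower than SMC by -2.17 ± 0.35 (edgeR adjusted p = 3.0e-07, lower in 3 of 3), and by -3.14 without the barcodes rich in Spp1 described below, which include that one, -3.38 without hashtag 2, -1.56 without hashtag 3 and -5.55 with non-muscle barcodes held under 0.5% muscle UMIs. The call was lost at 10% mitochondrial UMIs or less (-1.07, edgeR adjusted p = 0.066). Fibroblasts exceeded endothelial barcodes by 2.28 ± 0.43 (edgeR adjusted p = 9.5e-06), lost under the same mitochondrial limit (1.35, edgeR adjusted p = 0.056) and 3.27 without hashtag 2.

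No macrophage barcode held a Tnfrsf11b UMI, and at the 3 counts that 0 allows over the group the level was at least 2.90-fold lower than the 34.3 CPM of SMC (edgeR adjusted p = 0.0031, lower in 3 of 3 hashtags). Within SMC the Pln-detected sums were 43.6, 49.6 and 46.4 CPM and the Pln-undetected sums 26.5, 34.8 and 29.0 CPM. These did not overlap, but the difference did not pass over all genes (log2 0.65 ± 0.18, edgeR adjusted p = 0.16).

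**Figure D3:**
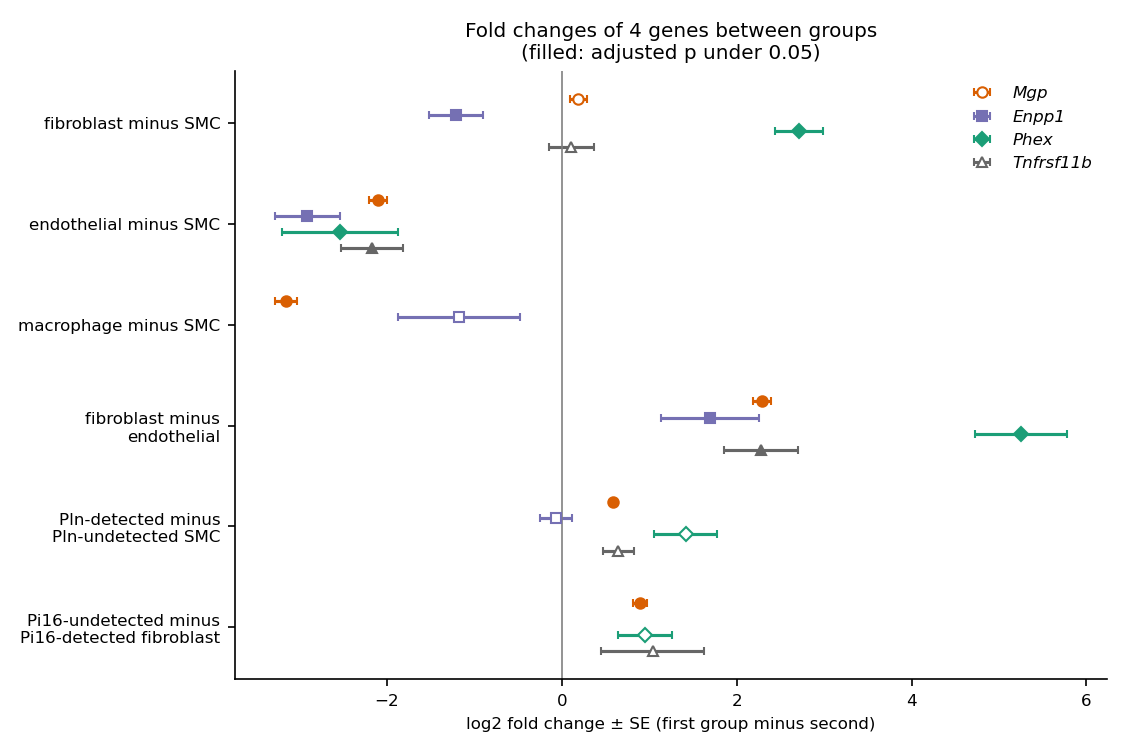
Log2 fold change ± SE of Mgp, Enpp1, Phex and Tnfrsf11b in 6 comparisons, first group minus second, with filled symbols for an edgeR adjusted p under 0.05. Macrophage values of Tnfrsf11b and Phex rest on 0 UMIs and are not drawn; Phex is furthest right in both fibroblast comparisons, and Enpp1 is left of 0 in fibroblasts against SMC.

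Barcodes with much Mgp also held more of the other transcripts. In fibroblasts ranked by Mgp share and cut into 4 equal bins from lowest to highest, Phex was 8.41, 34.2, 81.6 and 168.8 CPM, Tnfrsf11b 14.8, 22.8, 29.4 and 86.9 CPM, and Enpp1 2.47, 9.59, 19.4 and 38.7 CPM. All climbed at each step, and Enpp1 in the highest bin of fibroblasts stood beside 36.5 CPM in the SMC group. Over the same fibroblast bins Acta2 was 793, 1185, 1681 and 1334 CPM, and the median depth 5685.5, 4455, 3874 and 4303 UMIs, and their part in these values was not tested. Lum climbed from 646 to 2925 CPM, while Pi16 went down from 2588 to 379 CPM and Fn1 from 1375 to 176 CPM. In SMC the same bins held 3.75, 6.07, 8.84 and 20.6 CPM of Phex, 25.5, 27.7, 32.02 and 51.5 CPM of Tnfrsf11b and 31.0, 34.7, 38.6 and 41.7 CPM of Enpp1. SMC of the highest bin held less Acta2 (12685 CPM against 15893 CPM in the lowest) and more Vcam1 (74.7 CPM against 12.7 CPM). Bins were cut on Mgp over cells of mixed hashtags, so these are descriptions with no test.

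**Figure D4:**
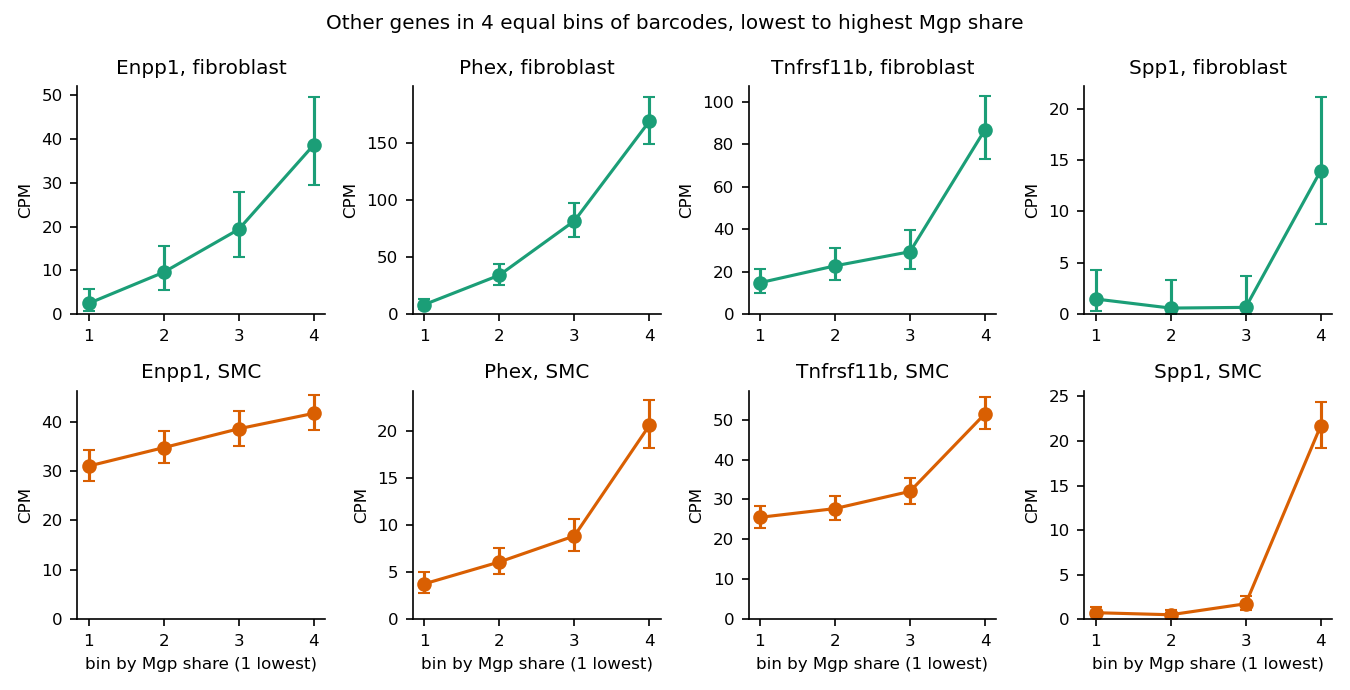
CPM of Enpp1, Phex, Tnfrsf11b and Spp1 in 4 equal bins of fibroblast (top row) and SMC barcodes (bottom row), ordered from lowest to highest Mgp share; bars are exact 95% Poisson intervals, which cover counting error only. Phex climbs at each bin in both groups, and Spp1 is nearly confined to the highest one.

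Spp1 was rare and came from few barcodes. The 9939 passing barcodes held 892 Spp1 UMIs in 101 barcodes, and 20 barcodes with 10 or more held 744 of these (83.4%). Just inside that limit were barcodes with 10, 11 and 13 UMIs and just outside ones with 9, 8 and 7. Of the 20, 1 was a fibroblast, 2 were endothelial, 5 were SMC and 12 met no group rule. Hashtags did not place them, since 12 were negative, 4 carried several hashtags and 4 carried 1. The group levels of 3.99 CPM in fibroblasts, 49.3 CPM in endothelial barcodes, 3.94 CPM in macrophages (1 UMI) and 6.28 CPM in SMC therefore rest on single cells. In endothelial barcodes 101 of 120 UMIs lay in 1 barcode, and the 3 sums were 3.24, 203.1 and 0 CPM. Without the 20 barcodes the levels were 2.07 CPM in fibroblasts, 2.48 CPM in endothelial barcodes, 3.94 CPM in macrophages and 1.79 CPM in SMC, against 1.21 CPM under 500 genes. C1q macrophages, a common source of osteopontin in inflamed tissue, thus gave no Spp1 beyond 1 UMI in 74 barcodes.

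Other features of the Spp1-rich barcodes were not used to choose them. Mgp took 2.01 to 14.1% of their UMIs with a median of 5.97%. At 4% or more stood 19 of 20, against 408 of the other passing barcodes (4.11%). The 4% limit was used for this count alone, in place of the 5% used above. Several of the 20 lay between 4% and 5%, so the count of 19 depends on the limit. Tnfrsf11b was found in 14 of 20 at 377 CPM, against 16.0% and 35.4 CPM in the other passing barcodes. Enpp1 was found in 10 of 20 (15 UMIs) and Phex in 7 of 20 (13 UMIs). The genes that stood out most by ratio were led by Vcam1, a leukocyte adhesion molecule found in 18 of the 20 (3196 CPM against 63.6 CPM in the other barcodes). One barcode held 348 of the 687 Vcam1 UMIs, and without it the level was 1682 CPM. Timp1, a metalloproteinase inhibitor, was found in 14 (1340 CPM against 29.2 CPM), Esm1, a secreted proteoglycan, in 8 (246.6 CPM against 2.21 CPM) and Hbegf, an EGF receptor ligand, in 10 (595.5 CPM against 49.4 CPM). Fn1, fibronectin, was found in 19 (3778 CPM against 530 CPM). Acta2 was 4950 CPM, and Cd44, an osteopontin receptor, was found in 10 of 20. Runx2, Sp7, Bglap, Acp5, the chondrocyte genes Col2a1, Col9a1, Matn1 and Snorc, and the mesothelial genes Msln, Upk3b and Krt19 had 0 UMIs, which in 214953 UMIs allows up to 14.0 CPM each and so does not set them apart from low levels. Ctsk, a protease gene of osteoclasts, had 3 UMIs in 2 barcodes. The median depth was 9614 UMIs against 6587 in the other barcodes, so counts of barcodes with a UMI are not set at equal depth. The set was chosen after the data were seen, has no test, and was given no cell type name.

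**Figure D5:**
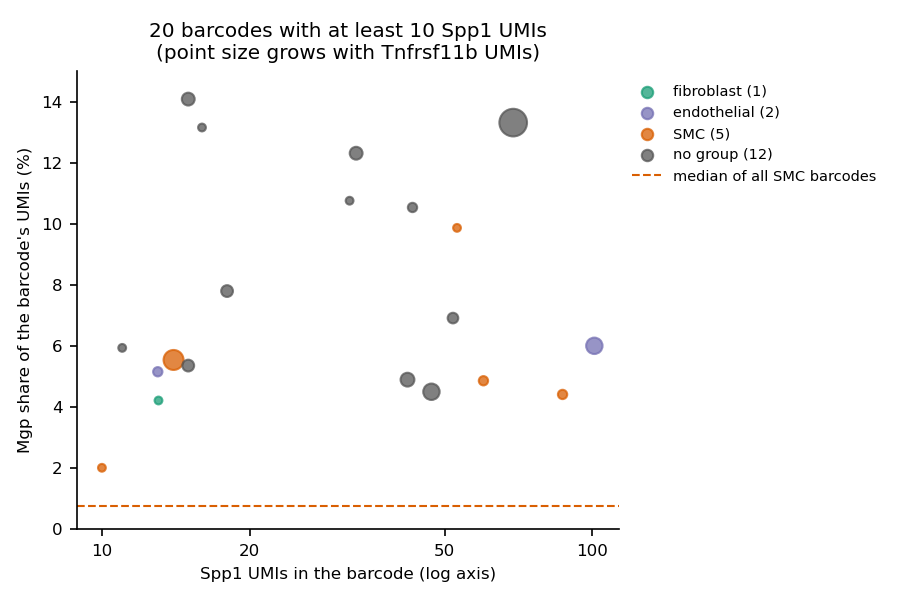
Spp1 UMIs (log axis) and Mgp share of UMIs (%) in the 20 barcodes with at least 10 Spp1 UMIs, coloured by group, with point size growing with Tnfrsf11b UMIs. The dashed line is the median of all SMC barcodes, 0.761%, and all 20 points lie above it.

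Other genes that act in the same routes were counted in 7 lists of 46 genes. In the fibroblast minus SMC comparison 28 were tested, of which 10 were higher and 9 lower, where 19.3% of all tested genes were higher and 18.6% lower (median log2 0.04, against -0.0041 over all tested genes). Ectoenzymes split: Enpp3, a relative of Enpp1 and its neighbour 61.7 kb away with no protein-coding gene between, was 55.9 CPM in fibroblasts and 1.72 CPM in SMC (log2 4.14 ± 0.40, edgeR adjusted p = 1.0e-13). Entpd1, which breaks down extracellular ATP, was 18.3 CPM in fibroblasts and 154 CPM in SMC (-3.21 ± 0.22, edgeR adjusted p = 7.7e-20), and Ank, linked to pyrophosphate release, was 33.4 CPM in fibroblasts and 56.2 CPM in SMC (-0.98 ± 0.22, edgeR adjusted p = 0.00025). Among phosphate genes Xpr1, the phosphate exporter, and Slc20a2, the importer PiT-2, were lower in fibroblasts (-2.76 and -1.50), while Fgfr1 (0.73) and Smpd3, a sphingomyelinase needed for bone mineralization (6.52), were higher. Smpd3 stood at 131.5 CPM in fibroblasts and 1.18 CPM in SMC.

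Of 4 tested genes in the list on vitamin K dependent carboxylation, the step that activates matrix Gla protein, 2 were higher in fibroblasts, 1 enzyme and 1 substrate. Vkorc1, the vitamin K epoxide reductase, was 289 CPM in fibroblasts and 130 CPM in SMC (log2 1.03 ± 0.12, edgeR adjusted p = 1.3e-10), and Gas6, a Gla protein and so a substrate, was 602 CPM in fibroblasts and 272 CPM in SMC (0.95 ± 0.12, edgeR adjusted p = 3.3e-10). Ggcx, the carboxylase itself, was 29.4 CPM in fibroblasts and 20.5 CPM in SMC, and neither it nor the reductase gene Vkorc1l1 was called. Of the osteopontin receptors, Cd44 was higher in fibroblasts (1.47) and Itga9, Itgb1, Itgb3 and Itgb5 were lower (-2.50, -1.94, -1.19 and -1.14). Among bone and cartilage factors 2 of 4 tested genes were higher in fibroblasts, Sox9, the cartilage regulator, at 62.7 CPM in fibroblasts and 12.8 CPM in SMC (2.20 ± 0.26, edgeR adjusted p = 1.4e-10), and Bmp4, at 47.9 CPM in fibroblasts and 2.51 CPM in SMC (3.98 ± 0.42, edgeR adjusted p = 1.8e-12). Fam20c, the kinase that phosphorylates osteopontin, was also higher by edgeR (1.06 ± 0.34, edgeR adjusted p = 0.0087) but not called by DESeq2.

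In endothelial minus SMC, 6 of the 28 tested list genes were higher and 18 lower, where 23.1% of all genes were higher and 27.3% lower (median log2 -1.17, against -0.07 over all genes). The higher ones were Tnfsf10, which encodes the osteoprotegerin ligand TRAIL, at 128.5 CPM in endothelial barcodes and 0.341 CPM in SMC (7.94 ± 0.33, edgeR adjusted p = 2.2e-30), Bmp4 (5.33), the alkaline phosphatase gene Alpl (3.20), Enpp3 (2.25), Smad6 (1.24) and Cd44 (1.21). Alpl, whose enzyme splits pyrophosphate, was 18.1 CPM in endothelial barcodes and 1.64 CPM in SMC. In macrophage minus SMC 2 were higher, the osteopontin receptors Itga4 (3.66) and Cd44 (1.99), and 11 lower, where 13.6% of all genes were higher and 19.9% lower (median -1.39, against -0.38); 7 were lower by DESeq2 or with plain library totals. In fibroblast minus endothelial 10 were higher and 8 lower, where 19.9% of all genes were higher and 16.9% lower (median 0.45, against 0.03).

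None of 24 tested list genes was called between Pln-detected and Pln-undetected SMC by edgeR, nor by DESeq2, and 0 had an unadjusted p under 0.05 (median -0.02, against -0.0035). With only 0.303% of all 9576 tested genes called by edgeR, 0 of 24 calls does not set the lists apart. In Pi16-undetected minus Pi16-detected fibroblasts 13 were tested, with a median of 0.01 against -0.0049. Gas6 was higher (0.91, edgeR adjusted p = 0.011) and Smpd3 lower (-1.75, edgeR adjusted p = 0.021, not called by DESeq2). Over all 3854 tested genes 2.05% were called higher and 2.83% lower. Tnfsf11, which encodes RANKL, had 0 UMIs in every group, while its receptor gene Tnfrsf11a was 2.07 CPM in fibroblasts, 6.16 CPM in endothelial barcodes, 70.9 CPM in macrophages (18 UMIs) and 28.0 CPM in SMC; fibroblasts and endothelial barcodes were lower than SMC (-5.26 and -2.52), and the macrophage difference was not called. Osteopontin belongs to a cluster of bone matrix genes on chromosome 5, and its relatives Dspp and Mepe had 0 UMIs in all 4 groups and Dmp1 at most 0.296 CPM. Ibsp, bone sialoprotein, was found in 186 SMC barcodes (271 UMIs, 5.44 CPM), against 4 UMIs or 0.592 CPM in fibroblasts and 0.759 CPM under 500 genes, and was filtered out of the tests between groups. These low bone matrix genes were picked out after their values were seen.

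Across the 15 sums of the 5 groups and 3 hashtags, the genes whose log2(CPM + 10) ran most like each of the 5 were listed as a description, since these sums share groups, depth and free RNA. For Mgp they were Zfp503, Aebp1, Tceal3, Crispld2 and S100a6, with Pearson r of 0.965 to 0.975. For Tnfrsf11b, Mgp itself came first (r = 0.951), followed by 1500009L16Rik, Nalcn, Zfp503 and Tceal3. For Enpp1 they were Cercam, Ckb, Gem, Gm48529 and AI597479 (0.917 to 0.959), and for Phex Cpxm2, Olfml1, Serping1, Eya4 and Clec11a (0.939 to 0.946). For Spp1, where 105 of 141 UMIs lay in 1 endothelial sum, they were Retn, Mmrn1, Nts, Cidec and Cfd (0.807 to 0.936).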

How the data were processed

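Per the file headers, Cell Ranger 6.0.1 wrote the matrix, and its deposited values are unnormalized UMI counts. The submitters' processing notes list mm10 and Seurat 4.0.5. The matrix merges 4 gene expression libraries under 1 barcode suffix with 0 repeated barcodes, so no barcode is traced to a library. It holds 166848700 gene UMIs, of which passing barcodes hold 65706654. The 3 hashtag sums held 381011 to 619374 UMIs in fibroblasts, 516862 to 665325 in endothelial barcodes, 47739 to 91644 in macrophages and 2988383 to 4073254 in SMC. Barcodes meeting 2 group rules were dropped; doublets of 1 animal and 1 group remain.

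Hashtags were called with HTODemux (Seurat 5.3.0, quantile 0.99), and counts were summed per group and hashtag with at least 10 barcodes each. Sums were tested with edgeR 4.0.16 (glmQLFit and glmQLFTest, TMM, filterByExpr, hashtag as block) in R 4.3.3 and adjusted by Benjamini-Hochberg at 0.05. The fit was tested on simulated data, with changes put into genes of higher counts. Of 100 genes changed by 1 in log2, it recovered 62 in the group fit, 64 in the Pln fit and 72 in the Pi16 fit. Of 100 changed by 2 it recovered 98, 99 and 98. A gene that was not called may therefore still differ. The hashtag pairs groups as the label of 1 animal; deviations of same-hashtag sums correlated only at -0.03 to 0.06 over 9046 genes. The text names all 5 genes, list genes that passed a test or led their list in level, and the 5 most like genes. Alternatives were DESeq2 1.42.0, other scaling, filters, thresholds, hashtag callers and sums left out. The 5 genes, the lists and the groups were chosen with earlier results of these data known.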

Additional observations from a re-analysis of the deposited data

Results flagged for a closer look

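The 623 passing barcodes that met no group rule enter none of the comparisons and held all 5 transcripts above the 3 counts that a count of 0 allows. They held 86992 UMIs of Mgp (28713 CPM), 417 of Spp1 (137.6 CPM), 299 of Tnfrsf11b (98.7 CPM), 130 of Enpp1 (42.9 CPM) and 127 of Phex (41.9 CPM). Their Mgp level was above that of every named group, and 68 of them (10.9%) gave at least 5% of their UMIs to Mgp. They held 46.7% of all Spp1 UMIs, 12 of the 20 Spp1-rich barcodes, and 24 UMIs (8.30 CPM) outside these. The barcodes are mixed: neutrophil markers summed to 3133 CPM, pericyte markers to 1305 CPM, SMC check genes to 1675 CPM and fibroblast check genes to 939 CPM in them, and the part of each in these levels was not tested.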

How the results depend on the processing

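The number of genes called was 3428 in fibroblast minus SMC, 4557 in endothelial minus SMC, 3033 in macrophage minus SMC and 3329 in fibroblast minus endothelial. With at most 10% mitochondrial UMIs the first, second and last gave 2174, 2644 and 2052, from fewer barcodes. Leaving out a hashtag gave 1864 to 2407 in macrophage minus SMC, lowest without hashtag 3. The stricter hashtag caller could be fitted for endothelial minus SMC alone, with 1899 genes called and 2 members, Mgp and Enpp1, the only ones past its filter on low counts. In fibroblast minus endothelial 2 of 4 members were called at the lower mitochondrial limit.

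Between Pln-detected and Pln-undetected SMC, 29 genes were called, against 11 with DESeq2, 56 with no filter, 19 with no replicate block, 10 at the lower mitochondrial limit, 17 with the split made on thinned counts and 13 to 32 without 1 hashtag, lowest without hashtag 3. The members called were 2 with no filter and 1 to 2 without 1 hashtag. For Pi16 in fibroblasts, 188 genes became 95 with DESeq2, 423 with no filter and 52 to 189 without 1 hashtag, lowest without hashtag 3, and 2 members were called without mesothelial barcodes. Without the block, members' calls did not change.

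Directions turned in 3 results, none of them called. Tnfrsf11b in fibroblast minus SMC was -0.11 without hashtag 2 (-0.11 to 0.42 over the 3). Enpp1 by Pln was 0.011 without hashtag 1 (-0.19 to 0.011). Tnfrsf11b by Pi16 was -0.0011 without hashtag 1 (-0.0011 to 1.28). Of 30 group levels, 3 moved by more than the SD of the hashtag sums with single-hashtag barcodes, 5 at the lower mitochondrial limit and 0 at 1000 UMIs or more. Unless a reason is given, the cause was not tested. Depth limits macrophages (254009 UMIs), where 0 UMIs allows 11.8 CPM. At the lower mitochondrial limit, macrophages and the Pi16 split had too few barcodes to be fitted.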

Other observations

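The 17650 barcodes removed for haemoglobin alone held 12687 CPM of Mgp, 8.47 CPM of Spp1, 33.9 CPM of Tnfrsf11b, 31.5 CPM of Enpp1 and 12.2 CPM of Phex, beside 10929 CPM of Acta2. The SMC group held 11240 CPM of Mgp, 6.28 CPM of Spp1, 34.3 CPM of Tnfrsf11b, 36.5 CPM of Enpp1 and 9.89 CPM of Phex. These removed barcodes had a median of 2436.5 UMIs, against 7315.5 in SMC, and 1 of them reached 10 Spp1 UMIs.

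The 426 barcodes dropped for meeting 2 group rules held 9187 CPM of Mgp, 34.8 CPM of Tnfrsf11b, 25.6 CPM of Enpp1 and 25.6 CPM of Phex. Runx2, the regulator of bone formation, was found in 26 fibroblast barcodes (3.85 CPM), 4 endothelial, 1 macrophage and 81 SMC barcodes (1.72 CPM), and in 30 UMIs of the barcodes of no group (9.90 CPM).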
